A study of Mus musculus with 3 samples.

Results

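The receptors that use the common gamma chain were followed in hematopoietic stem and progenitor cells of mice with a frameshifted *Calr*. The genes are *Il2rg*, which encodes the shared chain itself, and the chains that pair with it, *Il2rb*, *Il2ra*, *Il15ra*, *Il7r*, *Il4ra* and *Il21r*. They were picked by gene symbol, with earlier results of these data known, and each of the 7 had a row of its own among the 36172 genes of the deposited table. RNA sequencing was done on LSK cells (lineage-negative, Sca1-positive, c-Kit-positive), sorted from the bone marrow of C57BL/6 mice (C57BL/6 J background in the study's methods). There was 1 library per genotype, from *Calr* WT/WT mice (WT) and from heterozygous *Calr* ins2/WT (ins2) and *Calr* del10/WT (del10) knock-in mice. The knock-in alleles carry CRISPR-Cas9 frameshifts in the last exon of *Calr*, the gene of the chaperone calreticulin, and model the frameshifts found in myeloproliferative neoplasms. Each library was pooled from 4 males aged 3 months, so differences between mice cannot be seen, nothing could be checked in replicates and p-values are left out.

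The common gamma chain has no cytokine of its own. It joins a cytokine-specific chain once the ligand has bound, and JAK3 on the shared chain and JAK1 on the partner then phosphorylate STAT proteins, mainly STAT5, or STAT6 for interleukin-4 and STAT3 for interleukin-21. In bone marrow these receptors are best known from the lymphoid side: interleukin-7 sustains B-cell precursors, interleukin-15 sustains natural killer (NK) cells, and the interleukin-2 receptor alpha chain appears on precursor B cells. Stem cells rely mainly on other receptors, such as c-Kit, the receptor for stem cell factor.

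Values are normalized counts, the authors' estimated read counts per gene multiplied by the scaling factor of the library. The libraries held 9823095 to 11111698 reads in genes. They had been made from 5 ng of total RNA, and low read counts piled up at 61 reads (WT), 21 reads (ins2) and 16 reads (del10). These numbers were taken as the reads that 1 amplified fragment gave, so that the WT values are the least precise. Intervals are 95% intervals on such estimated fragments (exact Poisson for a level, exact binomial for a ratio), and they cover counting error only. Of single genes they are given for the receptor genes alone, so the ratios of other genes are point values. A gene at 0 could still have had up to 3 fragments, which is a floor of 201 (WT), 62.0 (ins2) and 48.9 (del10) normalized counts. Comparisons across genes used a main set, the 7073 genes whose mean reached 215.3 normalized counts, which held 6 of the 7 receptor genes and left out *Il15ra*.

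The WT library went against its LSK label in genes of the sort. *Kit*, the gene of c-Kit, had 286 (WT), 3082 (ins2) and 4177 (del10) normalized counts, and *Cd34*, a progenitor marker, was at 0 in WT against 727 and 1664. *Ly6a*, the gene of Sca1, was low in each library, at 145, 120 and 51.9. *Calr* had 3800, 4679 and 7300 normalized counts, which does not check the genotypes, since a frameshift in the last exon need not alter the level. B-lineage genes were highest in WT, with a summed level over 18 genes of 77770, 23052 and 21767 normalized counts. The comparisons of ins2 and del10 with WT share this library, and the comparison of del10 with ins2 does without it. In bulk libraries fewer cells of a type and less RNA per cell cannot be told apart.

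The shared chain was present in each library, with levels within 2-fold of each other. *Il2rg* lies on chromosome X (chrX:101264387-101268206, minus strand, mm10) and had 1328 normalized counts in WT (819 to 2072), 1688 in ins2 (1348 to 2103) and 1075 in del10 (832 to 1368). The intervals of the libraries overlapped. Its ratio to WT had a 95% interval of 0.768 to 2.18 in ins2 and of 0.480 to 1.40 in del10, each including 1. Between the knock-in libraries, the level was 1.57-fold lower in del10 (1.13 to 2.21). An annotated gene of the same strand, *Gm20489*, overlaps exons of *Il2rg* and has no row in the table, so reads of the pair could not be separated.

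*Il2rb* encodes the beta chain, which binds interleukin-2 and interleukin-15 together with the shared chain and is a hallmark of NK cells. It lies on chromosome 15 (chr15:78480549-78495066, minus strand) and had 2291 normalized counts in WT (1579 to 3187), 5884 in ins2 (5226 to 6615) and 2777 in del10 (2370 to 3220). The ins2 library stood above both others without overlap of the intervals. It was 2.57-fold above WT (1.81 to 3.80), and del10 was 2.12-fold below ins2 (1.75 to 2.59). The ratio of del10 to WT was 1.21 (0.837 to 1.81). Among the receptor genes of the main set *Il2rb* was the one with a value over 2-fold higher than WT.

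*Il2ra* encodes the alpha chain (CD25), which raises the affinity for interleukin-2 and does not signal. It lies on chromosome 2 (chr2:11642792-11693194, plus strand) and had 1119 normalized counts in WT (664 to 1826), 343 in ins2 (205 to 562) and 231 in del10 (125 to 383). The WT library was above both knock-in libraries without overlap. The level was 3.26-fold lower in ins2 (1.56 to 6.76) and 4.84-fold lower in del10 (2.32 to 11.0), which was the largest difference to WT among the 6 receptor genes of the main set in either comparison. These ratios rest on an estimated 17 (WT), 17 (ins2) and 14 (del10) fragments. The ratio of del10 to ins2 was 0.674, with an interval of 0.296 to 1.40.

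*Il15ra* encodes the alpha chain of the interleukin-15 receptor, which holds the cytokine on the cell surface and presents it to the beta and gamma chains. It is the next gene to *Il2ra* on chromosome 2 (chr2:11705293-11733985, plus strand), 12098 bp away with no other gene of the table between them. It was at 0 in WT, at 118 normalized counts in ins2 and at 66.2 in del10. The WT floor of 201 normalized counts lies above both knock-in values, so no fold against WT can be given and a difference was not detectable at this depth. The estimated fragments were 6 in ins2 and 4 in del10, and the ratio of del10 to ins2 was 0.561 (0.109 to 2.22).

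*Il7r* encodes the interleukin-7 receptor alpha chain (CD127), which marks lymphoid progenitors and also serves the receptor for TSLP. It lies on chromosome 15 (chr15:9506159-9529876, minus strand) and had 3679 normalized counts in WT (2779 to 4802), 1950 in ins2 (1570 to 2377) and 1538 in del10 (1238 to 1875). As for *Il2ra*, the WT library was highest, and its interval did not overlap those of the knock-in libraries. The level was 1.89-fold lower in ins2 (1.34 to 2.68) and 2.39-fold lower in del10 (1.69 to 3.39). The knock-in libraries had a ratio of 0.789 (0.586 to 1.06). *Il7r* was the receptor gene with the most reads in WT, at the 96.6 percentile of the genes with reads, and was still at the 92.0 percentile in ins2 and the 89.0 percentile in del10.

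*Il4ra* encodes the interleukin-4 receptor alpha chain, which pairs with the shared chain for interleukin-4 and with *Il13ra1* for interleukin-13. It lies on chromosome 7 (chr7:125552282-125579474, plus strand) and had 1015 normalized counts in WT (563 to 1659), 759 in ins2 (538 to 1054) and 495 in del10 (330 to 698). The interval of del10 overlapped those of both other libraries. The ratio to WT was 0.748 in ins2 (0.407 to 1.49) and 0.488 in del10 (0.253 to 0.972). With fragments sized from the share of genes at 0, the last interval widened to 0.220 to 1.10 and included 1. An antisense gene, *Gm44876*, overlaps its exons and has no row in the table, and it is not known here whether the counting used strand.

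*Il21r* encodes the interleukin-21 receptor and is the next gene to *Il4ra* (chr7:125603429-125633570, plus strand), 23954 bp away with no other gene of the table between them. It had 507 normalized counts in WT (232 to 1057), 393 in ins2 (236 to 613) and 223 in del10 (125 to 383). The intervals of the libraries overlapped, and the WT value rests on an estimated 8 fragments. The ratio to WT was 0.775 in ins2 (0.306 to 1.93) and 0.440 in del10 (0.166 to 1.17). The point ratio in del10 is thus past 2-fold, while its interval includes 1.

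**Figure D1:**
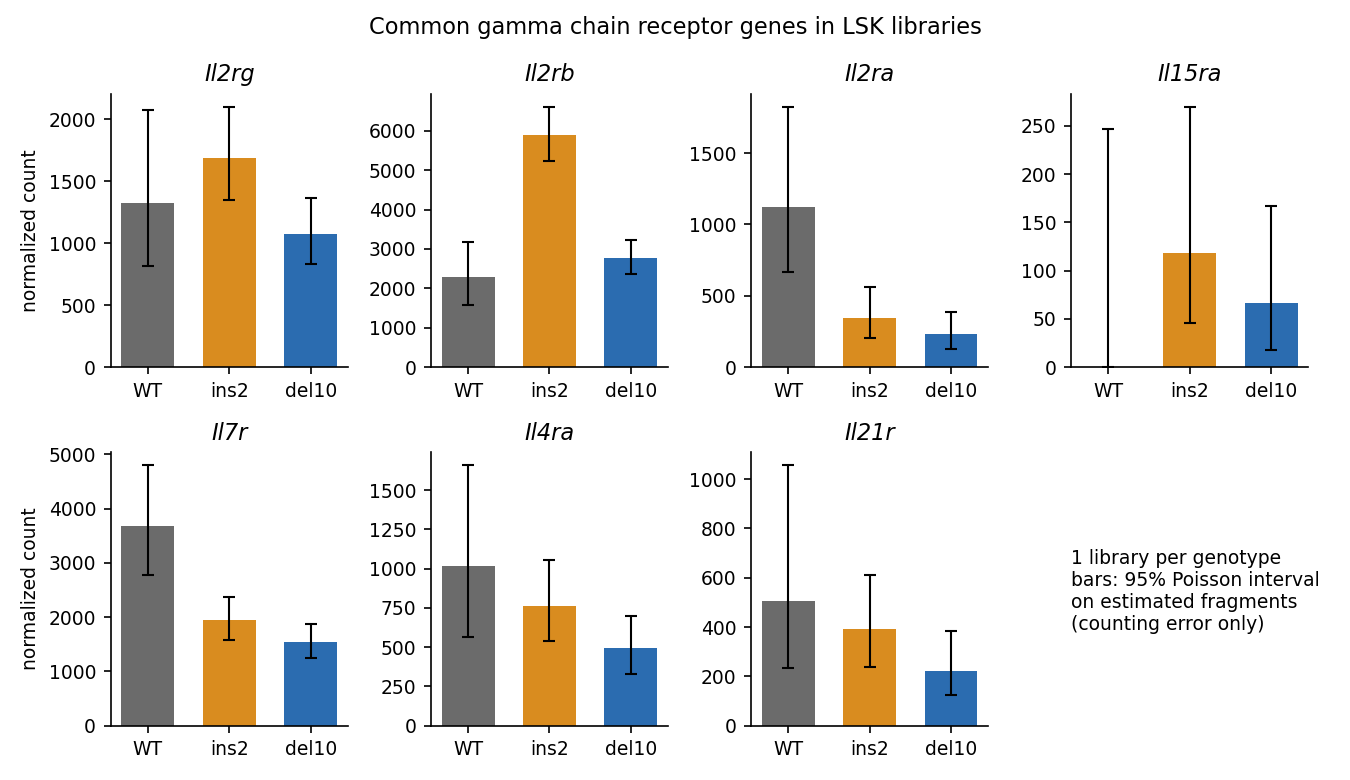
Normalized count of each common gamma chain receptor gene (y axis, a scale of its own per gene) in the WT, ins2 and del10 libraries, with error bars for the 95% Poisson interval on estimated fragments. *Il2rb* is highest in ins2 at 5884, *Il2ra* and *Il7r* are highest in WT at 1119 and 3679, and *Il15ra* is at 0 in WT.

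In del10, most receptor genes lay below WT. Of the 6 receptor genes in the main set, 1 was over 2-fold higher in ins2 than in WT (*Il2rb*), as were 15.7% of all genes of the main set, and 1 was over 2-fold lower (*Il2ra*), as were 10.7% of all genes. In del10 against WT, 0 of 6 were over 2-fold higher, against 15.3% of all genes, and 4 of 6 were over 2-fold lower (*Il2ra*, *Il7r*, *Il21r* and *Il4ra*), against 10.2% of all genes. In del10 against ins2, 0 of 6 were over 2-fold higher and 1 was over 2-fold lower (*Il2rb*), against 3.59% and 4.03% of all genes. The median log2 ratio of the 6 genes was -0.39 in ins2 against WT, -1.11 in del10 against WT and -0.63 in del10 against ins2, beside 0.04, 0.04 and 0.01 over the main set.

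A further count took the genes whose counting interval excluded 1. In ins2 against WT this held for 1 of 6 genes above 1 (*Il2rb*) and for 2 below 1 (*Il2ra* and *Il7r*), beside 10.5% and 10.2% of all genes. In del10 against WT it held for 0 above 1 and for 3 below 1 (*Il2ra*, *Il7r* and *Il4ra*), beside 10.9% and 10.2% of all genes. In del10 against ins2 it held for 0 above 1 and for 2 below 1 (*Il2rb* and *Il2rg*), beside 8.60% and 7.80% of all genes. Without the WT library, the 6 genes were all lower in del10 than in ins2, by 0.34 to 1.08 on the log2 scale, and so was *Il15ra* outside the main set. A lower value in del10 by any amount was found for 49.3% of all genes.

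**Figure D2:**
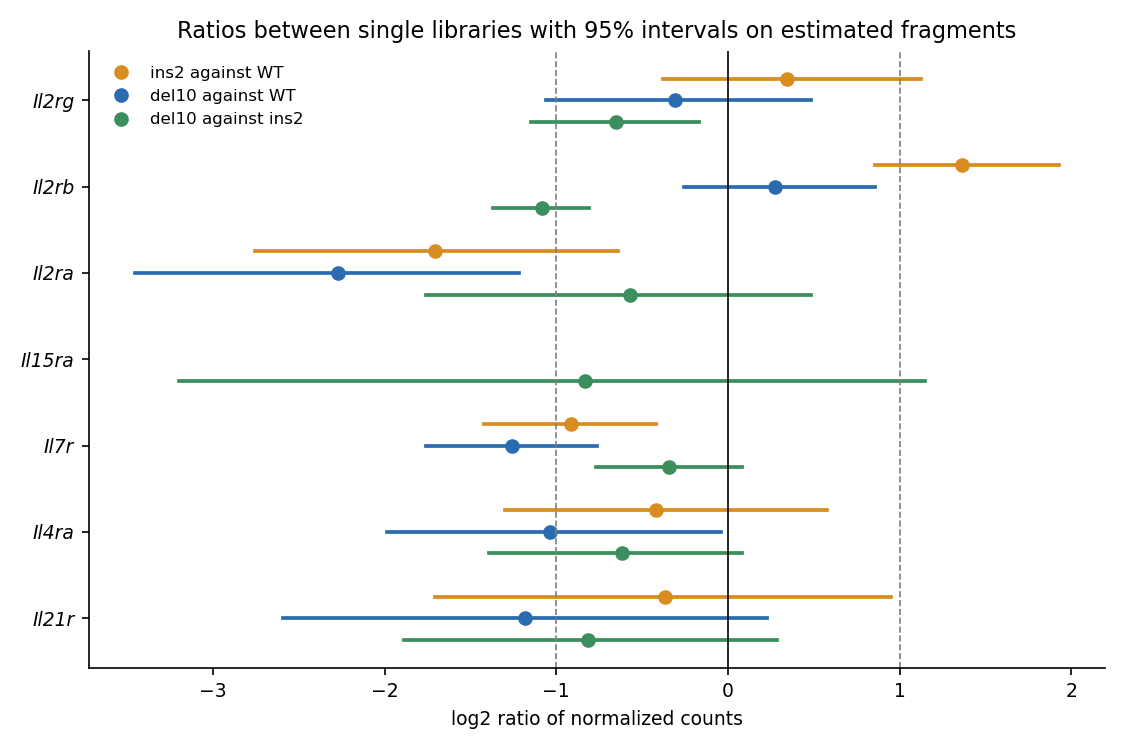
Log2 ratio between libraries for each receptor gene (points) with the 95% binomial interval on estimated fragments (lines), and dashed lines at 2-fold. The intervals of *Il2ra* and *Il7r* against WT lie below 0 in both knock-in libraries, that of *Il2rb* in ins2 lies above 0, and *Il15ra* has a ratio between the knock-in libraries alone.

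**Figure D3:**
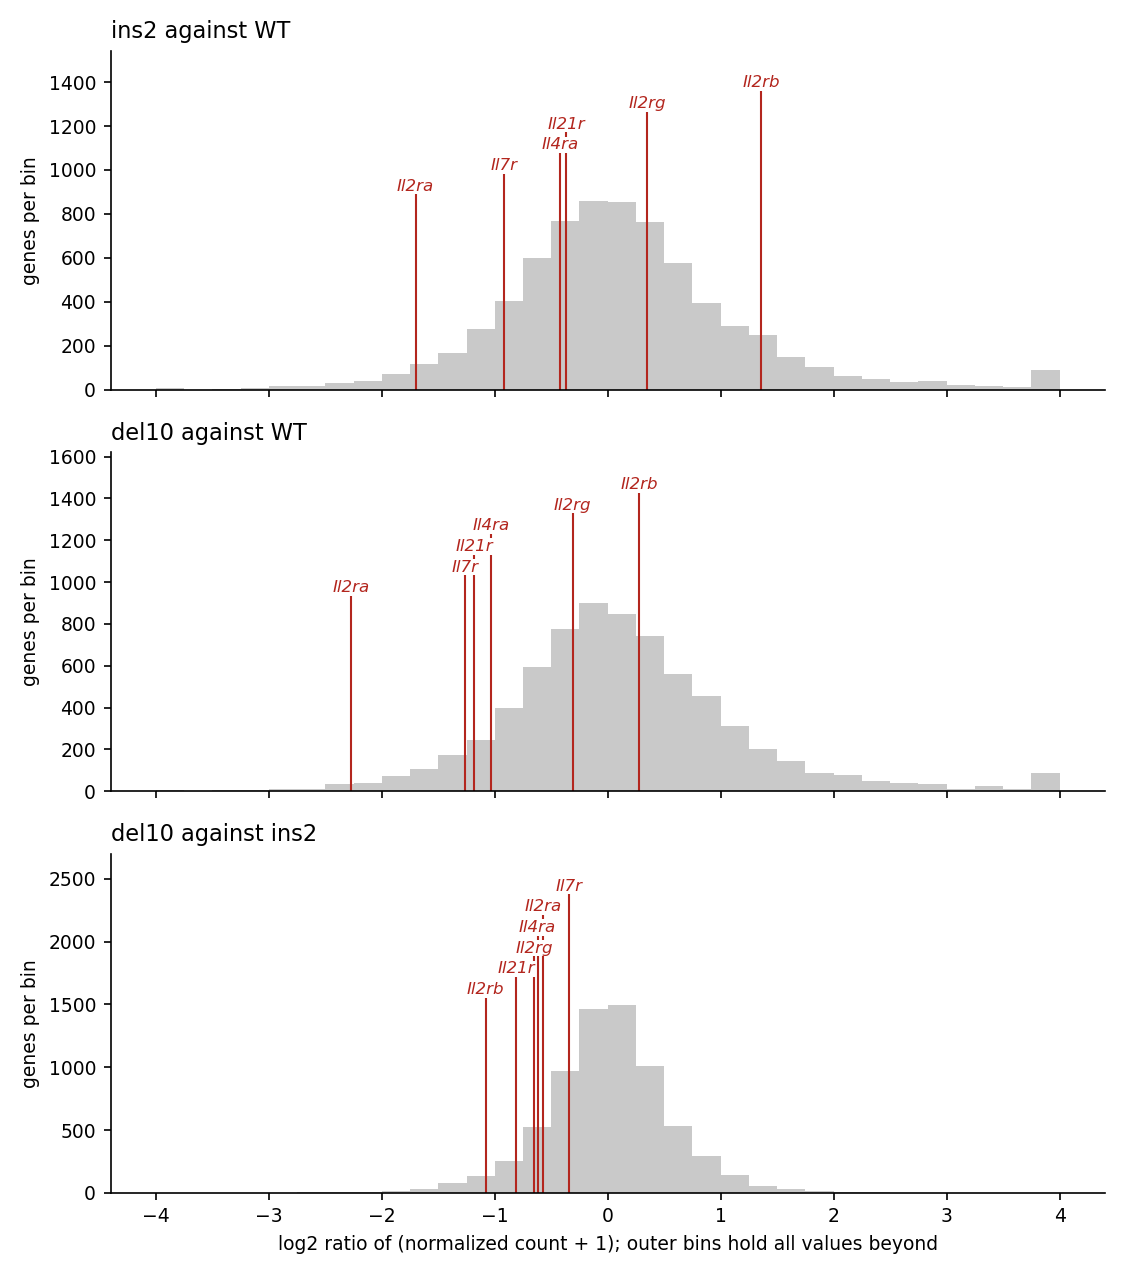
Histogram of the log2 ratio of the 7073 genes of the main set for each pair of libraries (grey, genes per bin of log2 ratio), with the 6 receptor genes of the main set as red lines. In del10 against WT, 4 of the lines lie below -1, and in del10 against ins2 all 6 lie between -1.08 and -0.34.

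Levels of different genes were compared per kb of the longest coding transcript. In WT the order was *Il7r* at 1039 normalized counts per kb, *Il2rg* at 795, *Il2rb* at 546, *Il2ra* at 254, *Il21r* at 203, *Il4ra* at 193 and *Il15ra* at 0. The steps from *Il2rb* to *Il2ra* and from *Il4ra* to *Il15ra* were beyond counting error, and the other neighbours in the order were not separated. In ins2 the order was *Il2rb* at 1403 per kb, *Il2rg* at 1011, *Il7r* at 551, *Il21r* at 157, *Il4ra* at 144, *Il2ra* at 77.8 and *Il15ra* at 61.0. Here *Il2rb*, *Il2rg* and *Il7r* were separated from each other and from the rest, *Il21r* from *Il4ra* and *Il2ra* from *Il15ra* were not, and the step from *Il4ra* to *Il2ra* sat at the limit of counting error. In del10 the order was *Il2rb* at 662 per kb, *Il2rg* at 644, *Il7r* at 435, *Il4ra* at 94.2, *Il21r* at 89.2, *Il2ra* at 52.4 and *Il15ra* at 34.2. The steps on either side of *Il7r* were beyond counting error, and the others were not. By point value *Il7r* thus led in WT and came after *Il2rb* and *Il2rg* in the knock-in libraries.

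As a share of the summed level per kb of the 7 genes, *Il7r* took 34.3% in WT, 16.2% in ins2 and 21.6% in del10. *Il2rb* took 18.0%, 41.2% and 32.9%. The share of *Il2rg* was 26.2%, 29.7% and 32.0%, and that of *Il2ra* was 8.37%, 2.28% and 2.61%. By point value the knock-in libraries thus held a larger share of the beta chain and smaller shares of the interleukin-7 and interleukin-2 alpha chains than WT. The shares have no interval, and a share also depends on the other chains. In del10 the *Il2rb* level itself was 1.21 of WT (0.837 to 1.81). The remaining chains, *Il4ra*, *Il21r* and *Il15ra*, took between 0% and 6.69% each.

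**Figure D4:**
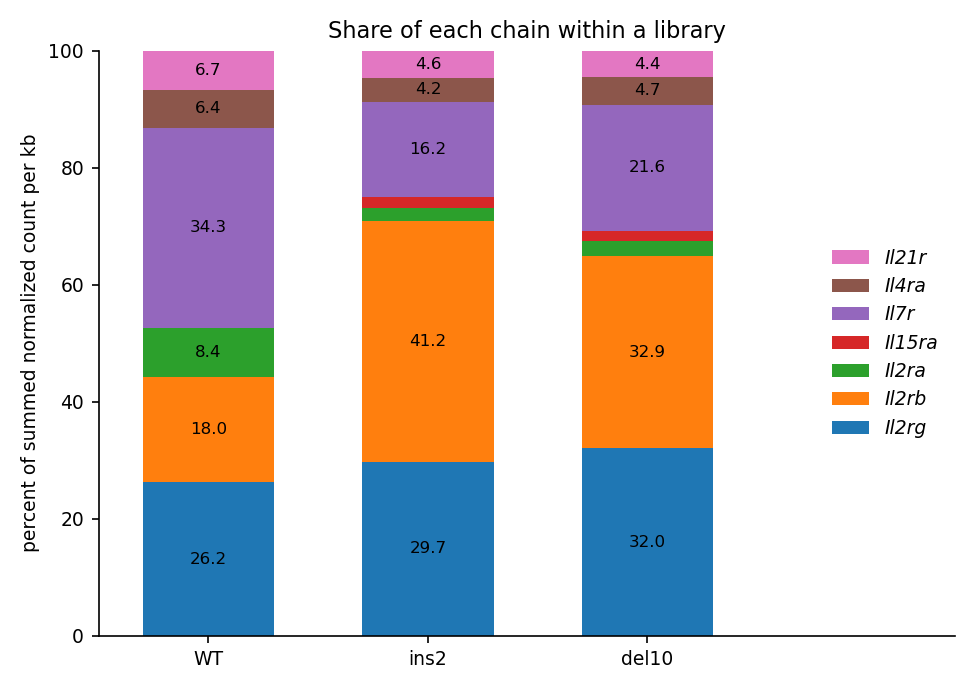
Share of each receptor gene in the summed normalized count per kb of the 7 genes (stacked bars, percent) in the WT, ins2 and del10 libraries. *Il7r* is the widest band in WT at 34.3% and *Il2rb* in ins2 and del10 at 41.2% and 32.9%.

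Each chain was also set against the shared chain *Il2rg* within the library, a ratio that does not depend on the scaling between libraries. *Il7r* and *Il4ra* also serve receptors without the shared chain, those for TSLP and interleukin-13. *Il2rb* had 0.687 of the *Il2rg* level per kb in WT (0.379 to 1.24), 1.39 in ins2 (1.08 to 1.79) and 1.03 in del10 (0.768 to 1.38). *Il7r* had 1.31 (0.765 to 2.29), 0.545 (0.398 to 0.736) and 0.675 (0.485 to 0.935). *Il7r* was thus below the shared chain in both knock-in libraries and not separated from it in WT. Between libraries, its WT interval overlapped that of del10 and not that of ins2, and the WT interval of *Il2rb* overlapped both knock-in intervals. *Il2ra* had 0.319 in WT (0.158 to 0.647), 0.0769 in ins2 (0.0436 to 0.133) and 0.0814 in del10 (0.0416 to 0.144), without overlap of WT with the knock-in libraries. For *Il4ra* the ratios were 0.243, 0.143 and 0.146, and for *Il21r* 0.255, 0.155 and 0.139, with overlapping intervals. Transcript levels do not give the number of receptors on the surface.

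**Figure D5:**
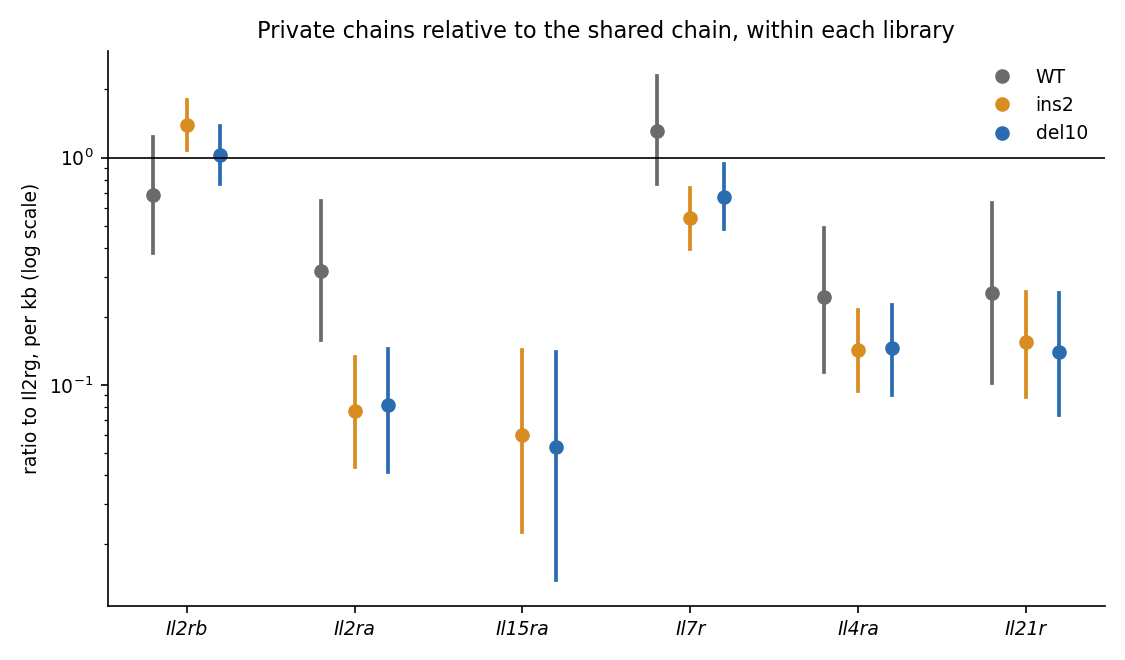
Ratio of each chain to the shared chain *Il2rg*, per kb (log scale, points), with the 95% binomial interval on estimated fragments (lines), in the 3 libraries. *Il2rb* lies above 1 in ins2 at 1.39, *Il7r* lies below 1 in both knock-in libraries, and *Il2ra* is at 0.319 in WT against 0.0769 and 0.0814.

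Markers of the cell types that carry these receptors also differed between the libraries, and where values are given without labels below they are in the order WT, ins2 and del10. NK cell genes, all 12 of which had reads in each library, summed to 7975 (WT), 18304 (ins2) and 8752 (del10) normalized counts. Their leading genes *Klrk1* and *Ncr1*, which encode activating NK receptors, had 1401, 2925 and 1598 and 830, 3001 and 770. The sum of the NK list followed the order of *Il2rb*, as did the sums of the T-cell, monocyte and macrophage, and dendritic cell lists. Within the NK list *Ncr1*, *Klrd1*, *Nkg7*, *Gzma* and *Tbx21* were lower in del10 than in WT, and the other genes were higher. *Il2rb* had 28.7 normalized counts per 100 of the NK list in WT, 32.1 in ins2 and 31.7 in del10. This was not computed for the monocyte and macrophage list or the dendritic cell list, so it is not read as particular to the NK list. T-cell genes summed to 3749, 10901 and 6567, with *Cd3g* and *Cd5* at 0 in WT, and *Il2rb* had 61.1, 54.0 and 42.3 per 100 of them. The knock-in values of *Cd3g* and *Cd5* are under the WT floor of 201. *Lck*, a kinase of T and NK cells, and *Cd28*, a costimulatory receptor, led that list with 648, 2115 and 1318 and with 477, 1021 and 1114. Of 12 NK genes in the main set, 8 were over 2-fold higher than WT in ins2, and 2 were higher and 2 lower in del10. Of 11 T-cell genes in the main set, 9 were over 2-fold higher in ins2 and 6 in del10, and none lower. *Cd247*, *Cd4*, *Cd8a*, *Zap70* and *Thy1* of the T-cell list and *Gzmb* and *Klre1* of the NK list lay under the WT floor of 201. They reached the main set through higher knock-in values, so the filter itself raised these counts. Over the main set, 15.7% and 15.3% of genes were over 2-fold higher. The lineage-negative gate of the sort is meant to remove mature blood cells, B and T cells among them, and the markers of the antibody cocktail are not stated in the sources used here. The part of NK and T cells in the *Il2rb* level was not tested.

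As for *Il7r* and *Il2ra*, the summed levels of the lists for B-lineage cells and for type 2 innate lymphoid cells (ILC2) were highest in WT. Of 17 B-lineage genes in the main set, 15 were over 2-fold lower than WT in ins2 and 15 in del10, against 10.7% and 10.2% of the main set, and none of the 18 was at 0. *Rag1*, a recombinase gene of lymphocyte precursors, had 19498 (WT), 7175 (ins2) and 4899 (del10) normalized counts. *Dntt*, which encodes the terminal transferase of early lymphoid progenitors, had 3981, 3735 and 4194. The ILC2 list of 9 genes summed to 4631, 2420 and 1897, led by *Il1rl1* (the interleukin-33 receptor) with 1711, 896 and 1153 and *Il17rb* (an interleukin-25 receptor chain) with 1358, 348 and 214, with *Il5* at 0 throughout and *Klrg1* at 0 in WT. Of the 4 ILC2 genes in the main set, 1 was over 2-fold lower than WT in ins2 (*Il17rb*) and 3 in del10 (*Gata3*, *Il17rb* and *Icos*). The list was not uniform. *Rora* (79.3, 151 and 155) and, in ins2, *Icos* (241, 374 and 33.6) had higher values than in WT, and both are named because of their values. Each value of *Rora* is under the WT floor of 201, so a difference to WT was not detectable for it. The del10 value of *Icos* is under the del10 floor of 48.9, and *Icos* reached the main set through its WT and ins2 values. Its WT value rests on 219 reads, which is few estimated fragments, and its ratios have no interval. Whether *Icos* differs from WT beyond counting error was not tested. *Il2ra* had 1.44, 1.49 and 1.06 normalized counts per 100 of the B-lineage list, and had 24.2, 14.2 and 12.2 per 100 of the ILC2 list. *Il7r* had 4.73, 8.46 and 7.07 per 100 of the B-lineage list, and 79.5, 80.6 and 81.1 per 100 of the ILC2 list. The part of these cell types in the levels of *Il7r* and *Il2ra* was not tested.

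The other marker lists had higher sums in both knock-in libraries than in WT. Basophil and mast cell genes summed to 1495 (WT), 20826 (ins2) and 29941 (del10) normalized counts, led by the basophil proteases *Prss34* (785, 11103 and 15962) and *Mcpt8* (203, 3678 and 6320), while *Ms4a2*, *Tpsb2*, *Tpsab1* and *Mcpt4* were at 0 in each library and *Cma1* was at 0 in WT and del10. The list of LSK and stem cell genes summed to 3209, 14381 and 17997, led by the transcription factor gene *Gata2* (804, 5708 and 6340), with *Cd34* and *Mecom* at 0 in WT, *Procr* at 0 in WT and ins2 and *Hoxa9* at 0 throughout. Monocyte and macrophage genes summed to 1913, 5646 and 2717 and were led by *Ccr2* (1015, 3389 and 1788) and *Itgam* (466, 989 and 418), with *Fcgr1* at 0 throughout, *Csf1r* and *Cx3cr1* at 0 in WT, *Cd14* at 0 in WT and ins2 and *Emr1* at 0 in WT and del10. Neutrophil genes summed to 1766, 2171 and 4185, led by *Mpo* (1034, 1581 and 2972) and *Ctsg* (144, 206 and 774, in WT under the floor of 201), while *Elane*, named because of its values, had 418, 104 and 129, with the late granule genes *S100a8*, *Ltf*, *Camp*, *Ngp* and *Ly6g* at 0 throughout and *S100a9* at 0 in del10. Dendritic cell genes summed to 1982, 4103 and 2510, led by *Itgax* (500, 2062 and 1236) and *Siglech* (662, 1095 and 775), with *Cd209d* at 0 throughout and *Zbtb46* at 0 in WT. The part of these cells in the receptor levels was not tested. Of the genes named in this paragraph as at 0 in WT, *Cd34* and, in ins2, *Csf1r* (316) exceeded the WT floor of 201. For the others a difference to WT was not detectable.

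The cytokines themselves had few or no reads. Of 8 ligand genes none had a read in WT, where up to 201 normalized counts each would have gone undetected, and none reached the main set. *Il15*, the ligand of *Il15ra* and *Il2rb*, had 247 normalized counts in ins2 and 135 in del10. *Il4* had 39.4 and 33.3, and *Il13*, which shares the *Il4ra* chain, had 51.2 and 16.3, each under the floors of 62.0 in ins2 and 48.9 in del10. *Il7* (47.9) and *Tslp* (28.5), the ligands of *Il7r*, were found in del10 alone, each below its floor of 48.9 normalized counts. *Il2*, *Il9* and *Il21* were at 0 in each library.

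Of 4 further receptor chains for cytokines related to these receptors, *Crlf2*, which forms the TSLP receptor with *Il7r*, was in the main set. It had 292 (WT), 664 (ins2) and 548 (del10) normalized counts. As point values its log2 ratios to WT were 1.18 and 0.90, opposite in sign to those of *Il7r* (-0.92 and -1.26). The WT value of *Crlf2* rests on 266 reads, which is few estimated fragments, and its ratios have no interval. Whether *Crlf2* differs from WT beyond counting error was not tested. *Il13ra1*, the alternative partner of *Il4ra*, had 129 normalized counts in ins2 and was at 0 in WT and del10. The WT floor of 201 lies above the ins2 value, so a difference to WT was not detectable. *Il9r*, a further partner of the shared chain, and *Il13ra2*, a decoy receptor, were at 0 in each library.

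The genes of the kinases and STAT proteins below the receptors mostly lay within 2-fold of WT. Of 8 genes, 1 was over 2-fold higher than WT in ins2 and 1 in del10, in both cases *Stat5a*, and none was over 2-fold lower. Over the main set 15.7% and 15.3% of genes were over 2-fold higher and 10.7% and 10.2% over 2-fold lower, so the count is near the background and is no result about these genes as a group. *Stat5a*, which encodes a main transducer of interleukin-2, interleukin-7 and interleukin-15, had 462 (WT), 1084 (ins2) and 1674 (del10) normalized counts (log2 ratios 1.23 and 1.85). Its paralog *Stat5b* had 1636, 1970 and 2387, so that *Stat5b* was the more abundant of the pair by reads in each library. The ratio of *Stat5a* to WT was thus above 1 in the libraries where *Il2ra* and *Il7r* were below WT.

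The kinase of the shared chain, *Jak3*, had 986 (WT), 1567 (ins2) and 1139 (del10) normalized counts, and *Jak1*, the kinase of the partner chains, had 5813, 10463 and 7134. Both were highest in ins2, as *Il2rg* and *Il2rb* were, with log2 ratios to WT of 0.67 and 0.85 in ins2 and 0.21 and 0.30 in del10. *Stat6*, the transducer of interleukin-4, had 2116, 1934 and 1330, lowest in del10 as *Il4ra* was, with a log2 ratio to WT of -0.67. *Stat3*, the transducer of interleukin-21, had 1102, 1899 and 1737 (log2 ratios 0.79 and 0.66), while both point ratios of *Il21r* were below 1. *Tyk2*, a kinase of related receptors, had log2 ratios to WT of 0.07 and -0.05.

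Of 8 genes for adaptors and the phosphoinositide 3-kinase (PI3K) branch, 0 were over 2-fold higher than WT and 1 was over 2-fold lower in each knock-in library, the same gene, against 15.7% and 15.3% higher and 10.7% and 10.2% lower over the main set. This count too is near the background. The gene was *Irs2*, the insulin receptor substrate that also couples the interleukin-4 receptor to PI3K, with 1958 (WT), 893 (ins2) and 866 (del10) normalized counts (log2 ratios -1.13 and -1.18). The kinase genes *Pik3cd*, *Pik3r1* and *Pik3ca* had log2 ratios of 0.06, 0.08 and -0.60 in ins2 and -0.29, -0.10 and -0.96 in del10. *Ptpn11*, which encodes the phosphatase SHP-2, had -0.48 and -0.29.

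The main set held 11 of 15 target and feedback genes. Over 2-fold higher than WT were 4 in ins2 (*Socs3*, *Myc*, *Bcl2* and *Ccnd2*) and 2 in del10 (*Socs3* and *Myc*), and over 2-fold lower was 1 in each, *Gfi1* in ins2 and *Bcl6* in del10. Beside the shares over the main set (15.7% and 15.3% higher, 10.7% and 10.2% lower), the counts in del10 and the lower ones in ins2 are near the background. *Bcl2*, the survival gene that interleukin-7 and interleukin-15 maintain in lymphocytes, had 1366 (WT), 3736 (ins2) and 1948 (del10) normalized counts. It was highest in ins2, as *Il2rb* was, and its log2 ratios to WT were 1.45 and 0.51. *Myc* had 343, 1014 and 1573, and *Socs3*, an inhibitor of cytokine signals, had 571, 2047 and 1450. The most abundant of the list, *Mcl1* (survival) and *Pim1* (a kinase induced by STAT5), had log2 ratios to WT of 0.03 and 0.37 in ins2 and 0.58 and 0.68 in del10. *Ccnd2*, a cyclin gene, had 1.13 and 0.94.

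Without the WT library, 3 of the 11 target genes were over 2-fold lower in del10 than in ins2 and none was over 2-fold higher. They were *Bcl6* (315 normalized counts in ins2 and 124 in del10), *Pim2* (649 and 299) and *Bcl2l1* (805 and 397), and like *Gfi1* they are named because of their values. Their ratios have no interval, and the *Bcl6* value in del10 rests on 121 reads. Many of these genes also answer to other cytokines. Over the 5 lists of the pathway together, with 28 of 43 genes in the main set, 6 genes of ins2 lay over 2-fold above WT and 2 over 2-fold below, 3 and 2 in del10, and 0 and 3 in del10 against ins2. The shares over the main set were 15.7% and 10.7% in ins2, 15.3% and 10.2% in del10, and 3.59% and 4.03% in del10 against ins2. The 28 genes had median log2 ratios to WT of 0.15 and -0.03, beside 0.04 and 0.04 over the main set.

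In the common beta chain family, a neighbouring group of cytokine receptors, the shared chain was over 2-fold above WT. The main set held 4 of its 5 genes, of which 2 were past 2-fold upwards in each knock-in library and none downwards, beside 15.7% (ins2) and 15.3% (del10) of the main set upwards. In the gamma chain family the counts were 1 upwards and 1 downwards of 6 in ins2, and 0 and 4 of 6 in del10. The genes past 2-fold were *Csf2rb*, the common beta chain of the receptors for interleukin-3, interleukin-5 and GM-CSF (412, 4683 and 4903 normalized counts), and *Csf2rb2* (415, 2321 and 2110), its close paralog, with which it can share reads. The alpha chains *Csf2ra* and *Il3ra* had log2 ratios to WT of -0.29 and -0.49 in ins2 and -0.19 and 0.35 in del10. Whether the families differ beyond chance was not tested.

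Among 7 receptor genes of the gp130 family, 3 were in the main set. *Il6st*, the gp130 chain, had 493, 1143 and 734 normalized counts, and its log2 ratios to WT were 1.21 and 0.57. *Lifr* had 0.19 and -0.43 and *Il27ra* 0.47 and 0.58. *Il6ra*, below the main set, had 7.70 (WT), 226 (ins2) and 235 (del10) normalized counts. The WT value of *Il6ra* is under the floor of 201.

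For each receptor gene in the main set, the 3 genes with the most similar pattern over the 3 libraries were found by the Euclidean distance of centred log2 values. Nearest to *Il2ra* were *Snrnp48*, *Pigo* and *Eps8*, at distances of 0.041 to 0.096, with 27 genes of the main set within 0.25. *Snrnp48* had log2 ratios to WT of -1.75 and -2.26. Nearest to *Il2rb* were *Sytl2*, *Cdk5rap3* and *Serpinb9*, an inhibitor of granzyme B, at 0.024 to 0.046, with 55 genes within 0.25. *Serpinb9* had 454, 1217 and 569 normalized counts. These patterns were thus the rarest in the group.

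The other patterns were common. Nearest to *Il7r* were *Prepl*, *B3gnt5* and *Foxp4* (197 genes within 0.25), to *Il4ra* *Cep128*, *Kctd5* and *Senp7* (206 genes), and to *Il21r* *Scarna6*, *Usp20* and *Rbm45* (132 genes). Nearest to *Il2rg* were *Vps16*, *Il10rb*, a receptor chain of the interleukin-10 family, and *4930470H14Rik*, at 0.007 to 0.027 and with 346 genes within 0.25. A pattern over 3 libraries is shared by many genes, and nothing is drawn from it on control or function.

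Promoters are shown for the pair of receptor genes whose levels lay below WT with intervals excluding 1 in both knock-in libraries. The windows are from RefSeq (GRCm38.p6) and run from 250 bases before to 50 after the annotated start, written 5′ to 3′ on the strand of the gene. The *Il2ra* window is chr2:11642542-11642841 (plus strand) and the *Il7r* window is chr15:9529827-9530126 (minus strand). For *Il7r*, GENCODE vM21 places the coding transcript starts 41 and 48 bases downstream of the RefSeq start, at the 3′ end of this window. Capitals mark matches to the motifs named below.
Il2ra: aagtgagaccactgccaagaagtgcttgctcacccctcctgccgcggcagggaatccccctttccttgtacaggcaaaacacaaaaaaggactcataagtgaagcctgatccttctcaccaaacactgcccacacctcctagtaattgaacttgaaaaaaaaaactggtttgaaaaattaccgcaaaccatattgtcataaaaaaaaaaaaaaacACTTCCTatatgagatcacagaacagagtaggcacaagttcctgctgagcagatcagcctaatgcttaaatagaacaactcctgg
Il7r: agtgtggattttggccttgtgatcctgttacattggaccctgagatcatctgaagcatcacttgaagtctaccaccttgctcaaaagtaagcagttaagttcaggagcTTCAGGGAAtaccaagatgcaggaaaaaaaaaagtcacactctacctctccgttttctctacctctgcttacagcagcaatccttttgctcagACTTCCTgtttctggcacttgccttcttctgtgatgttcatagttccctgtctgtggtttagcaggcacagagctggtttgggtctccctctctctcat

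Both windows hold 1 match to AGGAAGT, a sequence bound by ETS factors, in the reverse orientation ACTTCCT, 35 bases before the start in *Il2ra* and 49 before it in *Il7r*. The *Il7r* window also holds 1 match to TTCNNNGAA, the motif of STAT dimers, 142 bases before the start, and the matches do not overlap. On either strand, AGGAAGT was found in 9.35% and TTCNNNGAA in 8.30% of 32851 RefSeq windows of the same length. The motif of interferon regulatory factors (GAAA, any pair of bases, GAAA) was in 3.44% of the windows and in neither of these. Windows were found for 6 of the 7 genes, and those of *Il2rg*, *Il4ra*, *Il15ra* and *Il21r* held none of the 3 motifs. The table had no *Il2rb* window. A match describes the letters of the window and is not evidence of binding.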

How the data were processed

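Total RNA (5 ng) of LSK cells was depleted of ribosomal RNA and turned into a directional library, 1 for each of the 3 genotypes, with single-end reads of 75 bp. The authors trimmed (Trimmomatic 0.32) and aligned reads to mm10 (TopHat2 2.1.1 with Bowtie2 2.2.3, per the submitters' processing notes, which also list bcl2fastq 2.20) and assigned them to RefSeq genes. The handling of strand, multi-mapping and duplicates is not stated in the sources. The authors deposited an estimated count per gene, whole to within 0.001 for 35.3% to 48.7% of genes with reads. They also deposited a log2 value after trimmed mean of M-values (TMM) scaling, with values under 1 set to 1.

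Normalized counts are the estimated counts times the factor recovered from the log2 values (1.10 in WT, 0.984 in ins2 and 1.02 in del10). Log2 ratios used a pseudocount of 1. The main set held genes at or above the median mean of 14145 detected genes. Fragments are reads divided by the commonest low count (moving mean over 5 counts on each side, searched from 5 to 150 reads), rounded to whole numbers, with 95% Clopper-Pearson or Poisson intervals. Fragments sized from genes at 0 in a library but at 100 to 200 normalized counts in both others had 78.5, 30.3 and 27.3 reads. Lengths came from GENCODE vM21. No test was run, since no group had replicates. Ratios, calls and intervals were tested on simulated independent reads, and the search for the commonest low count on simulated amplified fragments. The intervals on fragments were not simulated.

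Members and lists were chosen with earlier results of these data known. Named were the 7 receptor genes, all ligands, partner chains, kinases and STATs, the 4 most abundant and the 2 most changed main-set genes of the other pathway and receptor lists, the 2 most abundant and the undetected genes of the 9 marker lists, and the 3 genes nearest to each receptor gene. Some genes that this rule names are not reported here. Of the list symbols 1, *Adgre1*, had no row under that name. Python 3.11.15, NumPy 2.4.6, pandas 2.3.3, SciPy 1.17.1 and matplotlib 3.10.9 were used. Alternatives were other pseudocounts, scalings, filters, thresholds, fragment sizes and lengths.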

Additional observations from a re-analysis of the deposited data

How the results depend on the processing

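The 19 log2 ratios of receptor genes that could be given kept their sign under 133 alternative values (pseudocounts of 0.5 and 10, 4 other scalings and the difference of the deposited log2 values), and each stayed within its fragment interval. The other scalings moved ratios by at most 0.07 on the log2 scale. The smallest ratio was 0.28 (*Il2rb*, del10 against WT), so no scaling could change a sign. The deposited log2 values are the same data as the main ratios. The kept signs thus add no support to the ratios. The number of receptor genes past 2-fold was 2 in ins2 against WT, 4 in del10 against WT and 1 in del10 against ins2. A filter at the upper quartile, which keeps 4 of the 7 genes, gave 1 and 2 in the comparisons with WT, and a 4-fold threshold gave 0, 1 and 0. Counting intervals excluding 1 were found for 3, 3 and 2 genes on fragments, for 6, 6 and 6 on reads, which treat amplified copies as independent, and for 3, 2 and 2 with fragments sized from zeros, where *Il4ra* was lost in del10 against WT. Without a filter, pathway genes past 2-fold were 13, 11 and 8 against 8, 5 and 3, and the upper quartile left 0 in del10 against ins2. The genes added without a filter were ligands, *Il13ra1*, *Fcer2a* and *Socs2*, all below the main set. Most of them had a 0 in a library of the comparison, where the pseudocount of 1 sets the size of the ratio. Ranks per kb were the same for 9 of 21 values without length correction and for 21 with the union of exons.

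No paired analysis was possible because each genotype has 1 library. No replicate was left out for the same reason. Depth limits *Il15ra*, *Il21r* and the ligands most, with fewer than 10 estimated fragments in WT.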
